A study of Mus musculus with 35 samples.

Results

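Western diet (WD) was compared with chow in the aorta of wild-type (WT) mice after 22 weeks of feeding. All libraries titled WT, 22 weeks were used, 3 on WD and 3 on chow, which are 6 of the 35 libraries of the series. The series crossed 3 genotypes (WT, mice lacking apolipoprotein E, called EKO, and EKO mice with human apoA-I, called EKO/hA-I) with the 2 diets and with 6 or 22 weeks of feeding, and measured aortic RNA by sequencing. Both groups described here were C57BL/6 mice with no transgene named in the titles, 8 weeks old when feeding began and 30 weeks old at the end. Both groups were fasted overnight and bled under anaesthesia a week before the end, then perfused to remove blood, and the aorta was taken from its root down to the iliac branches with the surrounding fat stripped off. The labels number the libraries of a group, 3 in each of these 2, without naming animals. The p-values therefore measure spread between libraries, and that spread was estimated over all 35 libraries of the series.

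The artery wall holds an inner endothelial sheet, a middle layer of smooth muscle and elastic sheets, and an outer adventitia of fibroblasts, resident macrophages, mast cells and nerves that borders on perivascular fat. A Western diet is rich in fat, sucrose and cholesterol and makes mice obese, whereas wild-type mice clear lipoproteins through apolipoprotein E and are known to form few or no lesions on it. Adipocytes enlarge on such a diet and release the satiety hormone leptin, and the fat that lines the mouse thoracic aorta resembles brown fat.

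The libraries had between 7760000 and 17340000 reads behind them, as inferred from the smallest step between values, and levels are the authors' normalised signal. WD replicate 3 was titled WT while its genotype tag read EKO. Apoe, the gene deleted in EKO mice, stood at 764, 804 and 540 in WD replicates 1, 2 and 3, against 697, 660 and 440 in chow replicates 1, 2 and 3. The library with the EKO tag thus had Apoe within the range of the other WT libraries, and it was kept as WT. The aorta's defining markers were high in all 6 libraries, with Myh11, a smooth muscle myosin, at 4134 to 7844 on WD and 2168 to 9973 on chow, and Pecam1, an endothelial adhesion protein, at 274 to 460 on WD and 331 to 495 on chow. Y-linked transcripts were near 0 in replicate 1 and present in replicates 2 and 3, in both groups and in both WT groups fed for 6 weeks. Chow replicate 1 stood apart in heart muscle transcripts. Myh6, a cardiac myosin, was 1.43, 24.2 and 32.0 on WD against 3658, 70.7 and 236 on chow, so the groups did not overlap. The 13 cardiac markers summed to 91.2, 146 and 154 on WD and to 7298, 216 and 569 on chow, and no member passed in limma (7 had an unadjusted p under 0.05).

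After 22 weeks, WT aortas on WD carried more transcripts of leptin (Lep), of 3 mast cell proteases, of 4 adventitial fibroblast genes, of 4 complement genes and of the matrix protease Mmp3 than those on chow. They carried less of Dio2, Cdkn1a, Sox18, Col7a1 and Col11a2. Differences are log2 fold changes of value plus 1, WD minus chow, ± SE, tested with limma in 1 fit of all 35 libraries with Benjamini-Hochberg adjustment over 14157 genes and a threshold of 0.05. A total of 193 genes (1.36%) passed, 131 of them higher on WD (0.925%) and 62 lower (0.438%). The libraries of the groups did not overlap in 190 of the 193, while the same held for 16.9% of all genes tested (8.67% higher and 8.22% lower on WD). At an unadjusted p under 0.05 the test held 2295 genes. The rises were larger than the falls, since 78 higher genes and 14 lower genes differed by at least 1 on the log2 scale. The median over all genes was 0.01.

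The spread that this test used came mostly from the other groups. In a fit of the 6 libraries alone 0 genes passed, with 1219 at an unadjusted p under 0.05, and in a fit of the 4 WT groups 1 passed. Without WD replicate 3, the library with the EKO tag, 349 genes passed, 159 of the 193 among them. The count was 19 without WD replicate 1, 15 without WD replicate 2 and 47 without chow replicate 3. Among the 24 genes named as the largest rises and falls, Col7a1 alone kept its call with each of the 6 libraries left out, and 1 kept it without WD replicate 2, 3 without WD replicate 1 and 5 without chow replicate 3. Of the same 24, 12 kept it without chow replicate 2, 20 without chow replicate 1 and 19 without WD replicate 3. The count of all calls was 6 with a term for cardiac muscle genes in the fit, and 678 with a term for brown fat genes.

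**Figure D1:**
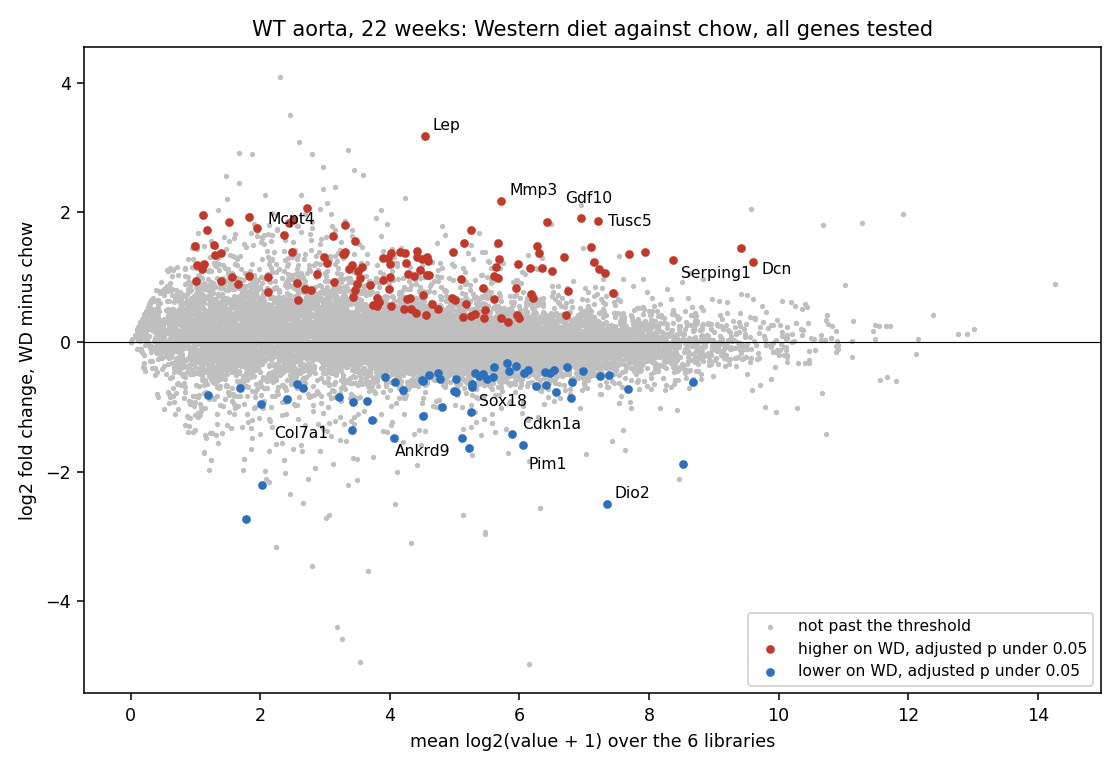
Each point is a gene, with its mean log2(value + 1) over the 6 libraries on the x axis and its log2 fold change, WD minus chow, on the y axis. Red points are the 131 genes that passed and were higher on WD, blue points the 62 that were lower, and grey points did not pass. Lep stands highest among the genes that passed.

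Lep, which encodes leptin, had the largest rise of the genes that passed. It was 86.8, 63.2 and 59.4 on WD against 5.26, 13.5 and 4.11 on chow. Every WD library lay above every chow library, with the lowest WD value more than 4 times the highest chow value. The difference was 3.17 ± 0.63 on the log2 scale (limma adjusted p = 0.012), and 3.28 ± 0.71 without WD replicate 3 (limma adjusted p = 0.019). The call ended without chow replicate 3 (limma adjusted p = 0.056), WD replicate 1 (0.064) or WD replicate 2 (0.068). Of 22 white adipocyte genes, only Lep passed, and 6 had an unadjusted p under 0.05. There were 11 above 0 and 11 below, with a median of 0.00. The groups did not overlap in 4 that were higher on WD and 2 that were lower, against 8.67% and 8.22% of all genes. Cfd, the adipocyte serine protease adipsin, was 417, 92.6 and 121 on WD against 973, 933 and 432 on chow, without overlap (-2.12 ± 0.62, limma adjusted p = 0.081). Adipoq, the hormone adiponectin, differed by -0.19 ± 0.40 (limma adjusted p = 0.86). Tusc5, also called Trarg1, which takes part in trafficking of the adipocyte glucose transporter, was 236, 264 and 367 on WD and 42.2, 167 and 64.0 on chow (1.87 ± 0.42, limma adjusted p = 0.025). Tusc5 missed the threshold without any 1 library other than chow replicate 2, with a limma adjusted p of 0.053 without WD replicate 3.

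The promoter of Lep is printed because a C/EBP site close to its start is well known to drive leptin in fat cells. It lies at chr6:29059971-29060270 on the plus strand (RefSeq, GRCm38.p6), as do all windows here covering 250 bases before to 50 after the start. Capitals mark the palindrome TTGCGCAA, a C/EBP motif that was chosen for display after the promoters were read, at position -55 relative to the start. It occurred in 0.183% of the 32851 RefSeq promoters, searched on both strands.
Lep promoter: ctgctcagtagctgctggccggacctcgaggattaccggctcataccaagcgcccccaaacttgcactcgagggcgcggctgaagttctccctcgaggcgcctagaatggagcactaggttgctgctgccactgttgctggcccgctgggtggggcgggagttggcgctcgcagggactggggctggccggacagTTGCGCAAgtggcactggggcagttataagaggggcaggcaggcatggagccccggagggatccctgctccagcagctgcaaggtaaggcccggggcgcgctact

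Dio2, the deiodinase that makes active thyroid hormone in brown fat, had the largest fall of the 12 named falls, which are genes that passed. It was 84.3, 50.5 and 71.5 on WD against 275, 680 and 309 on chow. The groups did not overlap, and chow replicate 2 was the highest library. The difference was -2.51 ± 0.54 (limma adjusted p = 0.018), and -2.55 ± 0.61 without WD replicate 3 (limma adjusted p = 0.029). Dio2 was the only one of 12 brown adipocyte genes to pass, and 11 of the 12 were below 0, with a median of -0.45. Slc27a2, a fatty acid transporter, and Kcnk3, a potassium channel, were lower without overlap and did not pass (-1.72 ± 0.53 and -1.37 ± 0.43, limma adjusted p = 0.094 and 0.1). Ucp1, the uncoupling protein that makes heat, was 3487, 1842 and 3059 on WD and 2161, 7680 and 3646 on chow, so its ranges overlapped. The 12 brown fat markers summed to 5529, 3184 and 5240 on WD and to 3936, 12100 and 5958 on chow. In whole aorta, fewer cells of a type and less RNA per cell cannot be told apart, and the part of residual fat in the Dio2 value was not tested. Without chow replicate 2 the call of Dio2 ended (-2.10, limma adjusted p = 0.069), as it did without WD replicate 1 or 2 or chow replicate 3 (limma adjusted p = 0.06, 0.11 and 0.05).

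Dio2 is known to answer to adrenergic cyclic AMP, and its promoter at chr12:90738989-90739288 on the minus strand (RefSeq, GRCm38.p6) holds the cyclic AMP response element TGACGTCA, in capitals, at position -95. This motif was present in 1.79% of all promoters on either strand.
Dio2 promoter: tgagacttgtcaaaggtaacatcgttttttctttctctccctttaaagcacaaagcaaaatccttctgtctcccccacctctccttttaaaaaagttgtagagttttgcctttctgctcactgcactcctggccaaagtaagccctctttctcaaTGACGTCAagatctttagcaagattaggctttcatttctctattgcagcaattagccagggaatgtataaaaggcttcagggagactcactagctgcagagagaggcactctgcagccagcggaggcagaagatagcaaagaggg

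**Figure D2:**
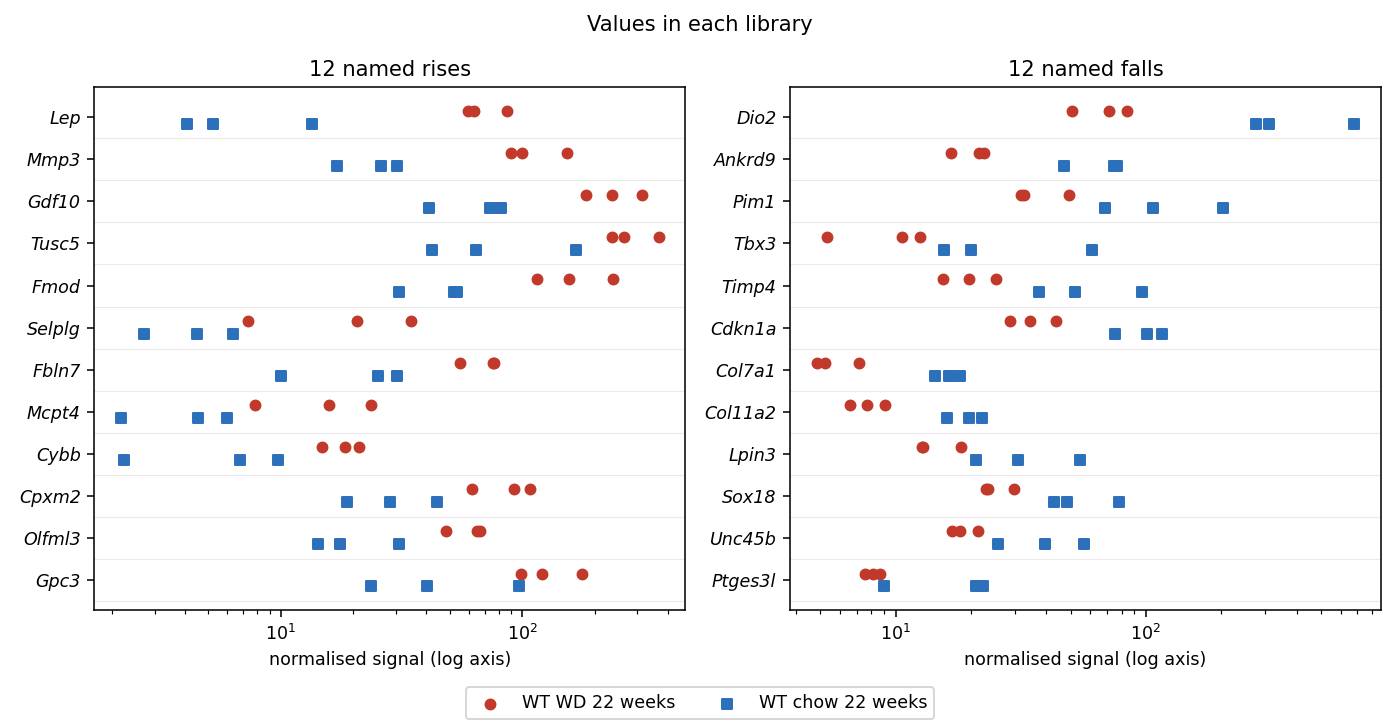
Normalised signal (log axis) of the 12 largest rises and 12 largest falls in each library, red circles for WD and blue squares for chow. The groups do not overlap in any of the 24 genes, which the rule for naming them required.

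Granule protease genes of mast cells were higher on WD. These proteases mark connective tissue mast cells, which sit in the adventitia and release histamine and enzymes. Of 7 mast cell genes tested, out of 10 listed, 3 were higher and passed, against 0.925% of all genes, and the median was 1.64. Tpsb2, a tryptase, was 20.0, 14.8 and 6.52 on WD against 4.68, 1.22 and 1.67 on chow (2.07 ± 0.37, limma adjusted p = 0.0087). Cpa3, the mast cell carboxypeptidase, was 16.2, 8.62 and 5.54 on WD against 2.69, 1.88 and 1.22 on chow (1.84 ± 0.37, limma adjusted p = 0.013). Mcpt4, a chymase, was 23.7, 15.9 and 7.81 on WD against 5.96, 4.53 and 2.18 on chow (1.64 ± 0.35, limma adjusted p = 0.019). In each of these genes WD replicate 1 was highest and WD replicate 3 still lay above every chow library. Cma1, another chymase, was 20.2, 11.8 and 5.54 on WD and 6.78, 2.54 and 1.03 on chow, with overlap, and did not pass (limma adjusted p = 0.071). Kit, the mast cell growth factor receptor, and Hdc, the enzyme that makes histamine, differed by 0.30 ± 0.34 and -0.41 ± 0.43 (limma adjusted p = 0.72 and 0.69). The 7 genes summed to 108, 74.96 and 48.0 on WD and to 35.9, 39.1 and 26.5 on chow. Without WD replicate 3, 4 of the 7 passed, Cma1 among them, while without WD replicate 1 or WD replicate 2 none did and without chow replicate 3 only 1 did.

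The promoters of Cpa3 and Mcpt4 are shown since both genes rose and mast cell genes are known to depend on the factor GATA2. Cpa3 (chr3:20242132-20242431, minus strand) holds the GATA motif AGATAA at position -46, and Mcpt4 (chr14:56062261-56062560, minus strand) holds the GATA motif TGATAA at position -103, both in capitals (RefSeq, GRCm38.p6). These short motifs occurred in 11.2% and 9.05% of all promoters on either strand. A different variant was marked in each promoter, and the share of promoters that hold either variant was not counted.
Cpa3 promoter: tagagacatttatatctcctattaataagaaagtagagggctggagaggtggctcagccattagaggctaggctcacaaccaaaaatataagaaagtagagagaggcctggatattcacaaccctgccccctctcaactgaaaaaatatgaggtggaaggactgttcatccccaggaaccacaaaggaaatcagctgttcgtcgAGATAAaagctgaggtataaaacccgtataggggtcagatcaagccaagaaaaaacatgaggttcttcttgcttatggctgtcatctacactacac
Mcpt4 promoter: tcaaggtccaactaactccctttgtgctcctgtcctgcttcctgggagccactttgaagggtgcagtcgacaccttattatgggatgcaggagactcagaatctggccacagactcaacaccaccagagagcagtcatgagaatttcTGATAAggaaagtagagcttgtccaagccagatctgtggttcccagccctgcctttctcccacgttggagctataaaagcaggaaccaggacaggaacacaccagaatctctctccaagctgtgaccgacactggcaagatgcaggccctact

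Of 14 adventitial fibroblast genes 4 rose and 0 fell, against 0.925% and 0.438% of all genes. All 14 were above 0, the smallest at 0.01, and the median was 0.89 against 0.01 over all genes. In 5 of them WD was higher without overlap, against 8.67% of all genes. Pdgfra, the receptor that marks fibroblasts, was 154, 136 and 97.1 on WD against 78.1, 29.7 and 47.9 on chow (1.38 ± 0.26, limma adjusted p = 0.012). Dcn, the collagen-binding proteoglycan decorin, was 1321, 1355 and 955 on WD against 849, 413 and 374 on chow (1.23 ± 0.26, limma adjusted p = 0.016). Both genes were higher in all 3 WD libraries than in any chow library, and chow replicate 1 was the highest on chow in both. Scara5, a ferritin receptor, and Serpinf1, the anti-angiogenic serpin PEDF, also rose (1.30 ± 0.27 and 1.36 ± 0.30, limma adjusted p = 0.016 and 0.023). The 14 genes summed to 7880, 6908 and 4885 on WD and to 5315, 2202 and 3186 on chow, so the sums overlapped. Without WD replicate 3, 6 of the 14 passed, without chow replicate 1 12 passed, and without WD replicate 1 or 2 none passed. Without chow replicates 2 and 3 the number was 2 and 1.

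Several secreted matrix proteins were among the largest rises. Mmp3, the metalloproteinase stromelysin that degrades proteoglycans, was 99.4, 154 and 90.2 on WD against 30.4, 17.03 and 26.1 on chow. All WD libraries were higher by a wide margin, the lowest of them being nearly 3 times the highest chow library. The difference was 2.18 ± 0.44 (limma adjusted p = 0.013), and 2.33 ± 0.50 without WD replicate 3. It did not pass without WD replicate 1 (limma adjusted p = 0.06) or WD replicate 2 (0.1). Gdf10, a member of the bone morphogenetic protein family, was 236, 313 and 183 on WD against 81.7, 41.1 and 73.7 on chow (1.91 ± 0.32, limma adjusted p = 0.0067). Its call ended without WD replicate 2 only, of the 6 omissions (limma adjusted p = 0.054). Fmod, the collagen-binding proteoglycan fibromodulin, was 115, 239 and 157 on WD against 52.1, 30.8 and 53.6 on chow (1.85 ± 0.47, limma adjusted p = 0.044), and it missed the threshold with any 1 of the 6 libraries left out.

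Fbln7, a fibulin, was 69.1 ± 11.9 on WD and 21.9 ± 10.5 on chow (SD, n = 3 each, 1.73 ± 0.37, limma adjusted p = 0.018). Olfml3, an olfactomedin-like matrix protein, Cpxm2, a carboxypeptidase-like protein, and Gpc3, a cell surface heparan sulfate proteoglycan, rose by 1.53 ± 0.30, 1.53 ± 0.33 and 1.47 ± 0.34 (limma adjusted p = 0.012, 0.019 and 0.03). Gpc3 came closest to overlap, with its lowest WD library at 98.8 and its highest chow library at 96.9. Of 22 collagen and matrix genes listed 0 passed in limma (5 at an unadjusted p under 0.05), with a median of 0.28 and the smallest limma adjusted p at 0.12 for Col14a1, a fibril-associated collagen (0.98 ± 0.32). A pair of further collagens outside the list, named after their values were seen, rose, namely Col8a2, a network collagen, and Col6a6, a microfibril collagen (1.39 ± 0.33 and 1.38 ± 0.34, limma adjusted p = 0.036 and 0.038). Of 16 elastic fibre genes 0 passed (3 at an unadjusted p under 0.05), with a median of 0.29. Eln, which encodes elastin, was 2328, 2828 and 2274 on WD and 4393, 1527 and 7648 on chow, so that the WD libraries lay inside the chow range (-0.59 ± 0.55, limma adjusted p = 0.64).

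Mmp3 is a classic target of the AP-1 factors, and its promoter (chr9:7445572-7445871, plus strand, RefSeq, GRCm38.p6) is printed with the AP-1 motif TGAGTCA in capitals at position -46. The motif occurred in 5.2% of all promoters on either strand.
Mmp3 promoter: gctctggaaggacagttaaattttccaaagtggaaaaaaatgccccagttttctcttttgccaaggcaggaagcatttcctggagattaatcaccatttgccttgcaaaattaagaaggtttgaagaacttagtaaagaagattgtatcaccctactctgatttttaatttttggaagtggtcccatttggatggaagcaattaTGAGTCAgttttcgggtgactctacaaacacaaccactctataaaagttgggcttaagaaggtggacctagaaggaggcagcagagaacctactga

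Of 18 complement components and regulators, 4 rose, 0 fell and 14 did not pass, with a median of 0.72. Over all genes 0.925% rose and 0.438% fell. Those that rose were both proteases of the first component, their inhibitor and a protease of the alternative pathway. C1s1, a protease of the first component, was 239, 229 and 197 on WD against 120, 105 and 80.5 on chow (1.13 ± 0.18, limma adjusted p = 0.0061). The WD libraries lay close together and far above the chow libraries, and this call held with each of the 6 libraries left out. C1ra, the protease that activates it, was 138, 149 and 111 on WD against 80.8, 47.5 and 58.9 on chow (1.10 ± 0.22, limma adjusted p = 0.012). Serping1, the inhibitor of both proteases, was 509, 620 and 421 on WD against 276, 146 and 237 on chow (1.26 ± 0.26, limma adjusted p = 0.013). Cfb, the protease of the alternative pathway, rose by 1.29 ± 0.31 (limma adjusted p = 0.033) in a pathway whose activating protease, Cfd, was lower without passing. The C1q chains C1qa, C1qb and C1qc, made by macrophages, differed by 0.70 ± 0.32, 0.80 ± 0.36 and 0.85 ± 0.35 and did not pass (limma adjusted p = 0.28, 0.27 and 0.22). The number of members called was 5 without WD replicate 3, 6 without chow replicate 1, 3 and 2 without chow replicates 2 and 3, and 1 without WD replicate 1 or 2.

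Leukocyte genes were mostly above 0, with few that passed. Of 18 macrophage markers 17 were above 0, against 7253 of all 14157 genes, and the median was 0.79. In 3 of them WD was higher without overlap, against 8.67% of all genes, and 9 had an unadjusted p under 0.05. The only 1 that passed, against 0.925% of all genes higher, was Csf1r, the receptor for the macrophage growth factor. It was 87.1, 89.0 and 50.7 on WD against 38.0, 40.0 and 21.8 on chow (1.16 ± 0.28, limma adjusted p = 0.038). Cybb, the catalytic subunit of the phagocyte NADPH oxidase, was 21.2, 18.4 and 14.9 on WD against 6.78, 9.73 and 2.25 on chow (1.55 ± 0.36, limma adjusted p = 0.029). Both genes were higher in every WD library, and both lost their call without chow replicate 3, WD replicate 1 or WD replicate 2 (limma adjusted p = 0.14, 0.17 and 0.19 for Csf1r and 0.13, 0.13 and 0.11 for Cybb). Genes of lipid-loaded macrophages gave 0 calls of 15 in limma (1 at an unadjusted p under 0.05), with a median of 0.42. Trem2, a lipid receptor of such cells, was 2.29, 11.02 and 4.67 on WD and 4.21, 1.66 and 1.16 on chow (0.97 ± 0.60, limma adjusted p = 0.43).

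Among 27 chemokine, cytokine and adhesion genes, 2 rose and 0 fell, against 0.925% and 0.438% of all genes, with a median of 0.28. Ccl11, the eosinophil attractant eotaxin, was 27.6, 24.1 and 23.4 on WD against 8.53, 12.03 and 7.25 on chow (1.37 ± 0.25, limma adjusted p = 0.0087). The WD libraries lay close together above all chow libraries, and the call ended without WD replicate 1 only, of the 6 omissions (limma adjusted p = 0.057). Selplg, the leukocyte ligand of P-selectin, was 34.7, 20.6 and 7.31 on WD against 4.48, 6.33 and 2.72 on chow (1.81 ± 0.41, limma adjusted p = 0.025). Its WD libraries were spread widely, and WD replicate 3 lay just above chow replicate 2. The call of Selplg ended without WD replicate 1, WD replicate 2 or chow replicate 3 (limma adjusted p = 0.18, 0.13 and 0.095). Tnfrsf11b, the decoy receptor osteoprotegerin, rose by 1.20 ± 0.30 (limma adjusted p = 0.04). It was 1 of 2 genes that rose among 16 genes of modulated smooth muscle, against 0.925% of all genes, with a median of 0.55. The other was Dcn, which is also counted among the adventitial fibroblast genes. The cytokines Il6, Tnf and Il1b differed by -0.10 ± 0.44, 0.02 ± 0.28 and 0.16 ± 0.41 (limma adjusted p = 0.94, 0.98 and 0.89).

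Lymphocyte markers differed most between libraries of the WD group. The 17 B and T cell genes summed to 920, 359 and 76.8 on WD and to 98.5, 117 and 30.3 on chow. Cd4, a T cell coreceptor, was 79.7, 37.8 and 1.74 on WD and 6.43, 5.09 and 0.321 on chow. WD replicates 1 and 2 were high and WD replicate 3 lay inside the chow range. None of the 17 passed in limma (4 at an unadjusted p under 0.05), with a median of 1.64 and the smallest limma adjusted p at 0.13 for Ptprc, the common leukocyte antigen. Without WD replicate 3, 2 of the 17 passed. Selplg and the mast cell genes were also highest in WD replicate 1, and the part of lymphoid tissue in them was not tested. Erythroid genes were higher in every WD library than in any chow library in all 7 tested, while this held for 8.67% of all genes, and 0 of the 7 passed in limma (all 7 at an unadjusted p under 0.05). Alas2, the first enzyme of haem synthesis in red cells, was 131, 349 and 368 on WD against 42.1, 64.8 and 73.0 on chow (2.12 ± 0.56, limma adjusted p = 0.056). In the WT groups fed for 6 weeks the order was the opposite, with the summed erythroid genes lower in every WD library than in any chow library.

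**Figure D3:**
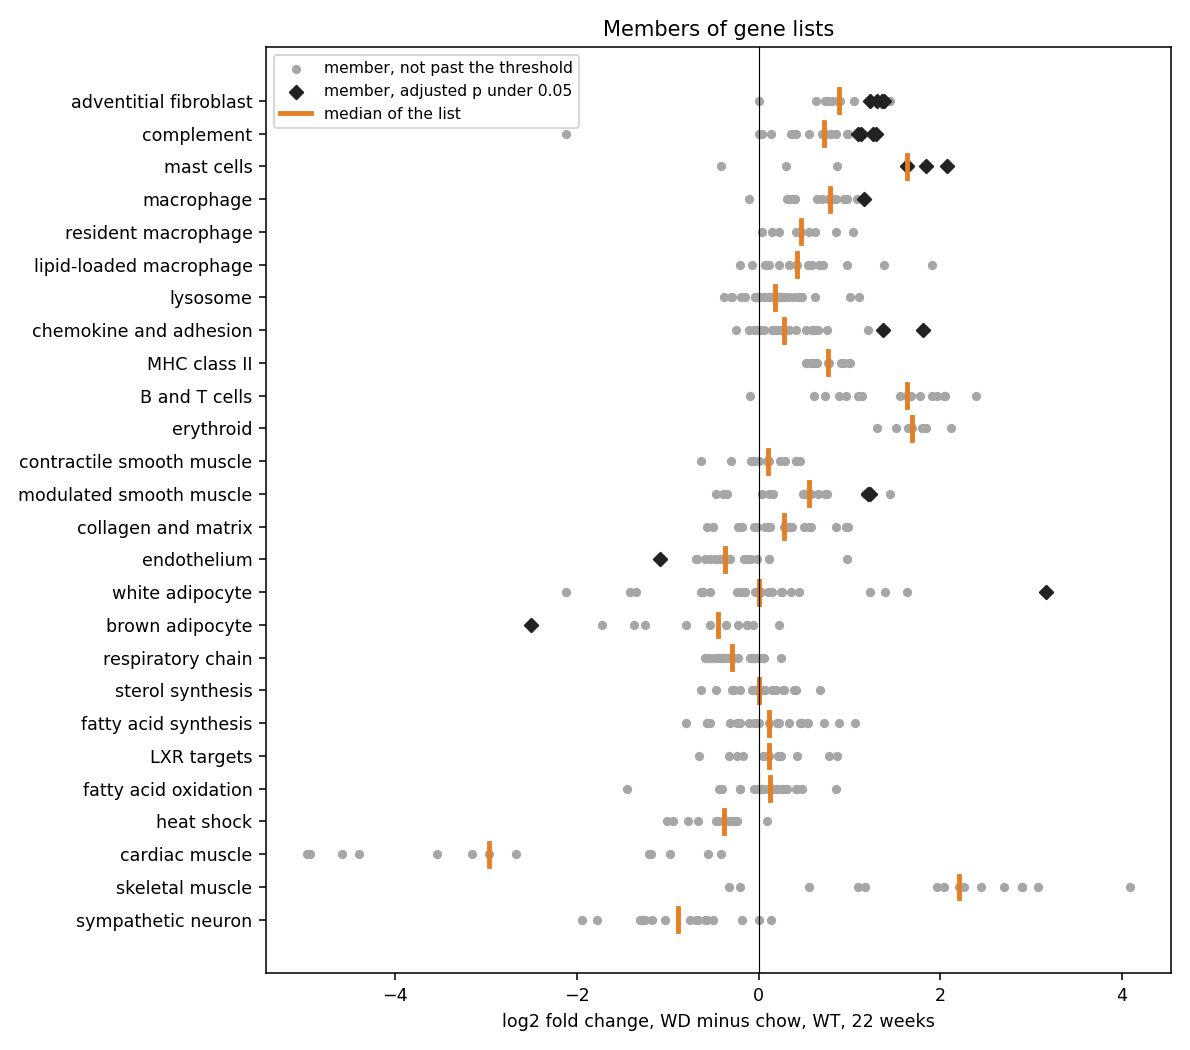
Each grey point or black diamond is a member of a gene list, placed by its log2 fold change, WD minus chow, and diamonds passed the test. Orange bars are list medians, which run from -2.97 for cardiac muscle to 2.21 for skeletal muscle, where no member passed.

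A pair of minor collagens and a cell cycle inhibitor were among the genes that fell. Col7a1, the anchoring fibril collagen, was 4.85, 5.24 and 7.17 on WD against 14.4, 16.4 and 18.1 on chow (-1.37 ± 0.23, limma adjusted p = 0.0067). The WD libraries all lay far below the chow libraries, and the call held with each of the 6 libraries left out. Col11a2, a fibrillar collagen of cartilage, was 9.04, 6.55 and 7.71 on WD against 19.6, 16.0 and 22.1 on chow (-1.21 ± 0.23, limma adjusted p = 0.012). Cdkn1a, the cyclin-dependent kinase inhibitor p21, was 34.6, 28.8 and 43.6 on WD against 75.4, 102 and 116 on chow (-1.43 ± 0.33, limma adjusted p = 0.029). The groups did not overlap, but the call ended without WD replicate 1 or 2 or chow replicate 2 or 3 (limma adjusted p = 0.1, 0.16, 0.061 and 0.093). Cdkn1a was the only one of 15 glucocorticoid-responsive genes to pass. The metallothioneins Mt1 and Mt2, which bind zinc, were lower in every WD library and did not pass (-1.15 ± 0.31 and -1.38 ± 0.46, limma adjusted p = 0.056 and 0.12).

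Sox18, an endothelial transcription factor, was 22.9, 29.7 and 23.4 on WD against 48.5, 77.8 and 42.9 on chow (-1.09 ± 0.27, limma adjusted p = 0.038). Without WD replicate 3 it missed the threshold (-1.03 ± 0.30, limma adjusted p = 0.062), as it did without any other of the libraries except chow replicate 1. It was the only one of 17 endothelial genes to pass, and 15 of the 17 were below 0, with a median of -0.37. Pecam1 and Cdh5, the adhesion proteins of endothelial junctions, differed by -0.02 ± 0.23 and -0.12 ± 0.24 (limma adjusted p = 0.98 and 0.85). Timp4, a metalloproteinase inhibitor, was 15.5, 19.6 and 25.1 on WD against 37.3, 96.1 and 52.1 on chow (-1.49 ± 0.34, limma adjusted p = 0.025). Pim1, a survival kinase, Tbx3, a developmental repressor, and Ankrd9, an ankyrin repeat protein, fell by 1.60 ± 0.40, 1.49 ± 0.37 and 1.64 ± 0.37 on the log2 scale (limma adjusted p = 0.044, 0.04 and 0.026). Lpin3, a phosphatidate phosphatase of lipid synthesis, Unc45b, a chaperone of muscle myosin, and Ptges3l, a co-chaperone-like protein, fell by 1.14 ± 0.27, 1.01 ± 0.26 and 0.92 ± 0.23 (limma adjusted p = 0.031, 0.046 and 0.039). Unc45b, a striated muscle gene, was 18.1, 16.9 and 21.3 on WD against 56.6, 39.4 and 25.5 on chow. In WT mice on WD for 6 weeks it was 47.8, 47.1 and 43.5. Chow replicate 1 at 22 weeks had the most cardiac transcripts, and their part in the Unc45b values was not tested.

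The lists of lipid pathways gave no calls. Outside these lists, Lpin3 and the endothelial lipase Lipg passed as lower (-1.14 and -2.21, limma adjusted p = 0.031 and 0.0067). Of 23 sterol synthesis genes, 23 of fatty acid and triglyceride synthesis, 13 LXR targets and 26 of fatty acid oxidation, 0 passed in either direction in limma, with medians of 0.00, 0.12, 0.11 and 0.13 and with 1, 3, 2 and 0 genes at an unadjusted p under 0.05. Abcg1, a cholesterol exporter, was 27.6, 26.4 and 16.4 on WD and 12.5, 18.7 and 9.11 on chow (0.78 ± 0.34, limma adjusted p = 0.25). Pltp, the phospholipid transfer protein, was 131, 132 and 105 on WD against 66.7, 74.0 and 59.5 on chow, without overlap, and did not pass (0.86 ± 0.24, limma adjusted p = 0.063). Scd1, the fatty acid desaturase, was 31250, 19850 and 30760 on WD and 8984, 30270 and 11080 on chow, with overlap (0.89 ± 0.52, limma adjusted p = 0.4). Of 34 lysosomal genes 0 passed (median 0.18, 10 at an unadjusted p under 0.05). Of 28 respiratory chain genes and 16 contractile smooth muscle genes 0 passed, with medians of -0.29 and 0.10 and 0 at an unadjusted p under 0.05. A total of 11 MHC class II genes and 27 interferon-stimulated genes gave 0 calls, with medians of 0.76 and 0.32 and with 2 and 3 genes at an unadjusted p under 0.05. Of 15 heat shock chaperones 0 passed and 14 were below 0 (median -0.38, 2 at an unadjusted p under 0.05), the smallest limma adjusted p being 0.076 for Hspe1, a mitochondrial chaperone.

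Other tissues left transcripts in some libraries. Skeletal muscle markers summed to 703, 227 and 112 on WD and to 292, 71.2 and 177 on chow, with overlap. Of the 15 genes, 13 were above 0 with a median of 2.21. In 10 of them WD was higher without overlap, against 8.67% of all genes. Myh4, a skeletal muscle myosin, was 118, 20.2 and 2.39 on WD against 0.312, 0.139 and 0.148 on chow. Its difference of 4.09 ± 1.92 was the largest rise of all genes tested and did not pass (limma adjusted p = 0.29). Sympathetic neuron markers summed to 46.5, 800 and 60.9 on WD and to 375, 342 and 122 on chow. Th, tyrosine hydroxylase of sympathetic neurons, was 0.262, 52.1 and 0.652 on WD and 17.1, 15.5 and 4.11 on chow. Hepatocyte genes summed to 52.1, 36.0 and 41.1 on WD and to 328, 426 and 125 on chow, mostly from Cyp2e1, a cytochrome P450 enzyme. No member of these lists passed in limma, with 3, 0 and 5 at an unadjusted p under 0.05. With terms for brown fat, skeletal muscle, cardiac muscle and nerve genes in the fit, 16 genes passed, 10 of the 193 among them, and the parts of these tissues in each result were not tested one by one.

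Transcript length moved with the diet groups as well. Genes higher on WD had a median transcript length of 4038 bases and genes lower on WD 2560 bases, against 3156 over all genes tested. The mean log2 level of the longest minus the shortest transcripts, each 1 of 5 equal groups by length, was 0.701, 0.823 and 0.784 in the WD libraries and 0.621, 0.570 and 0.592 in the chow libraries, without overlap. With this length term in the fit, chosen after the data were seen, 93 genes passed, 80.6% of them higher on WD against 67.9% without the term, and 76 of the 193 were among them. Its part in each gene was not tested.

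**Figure D4:**
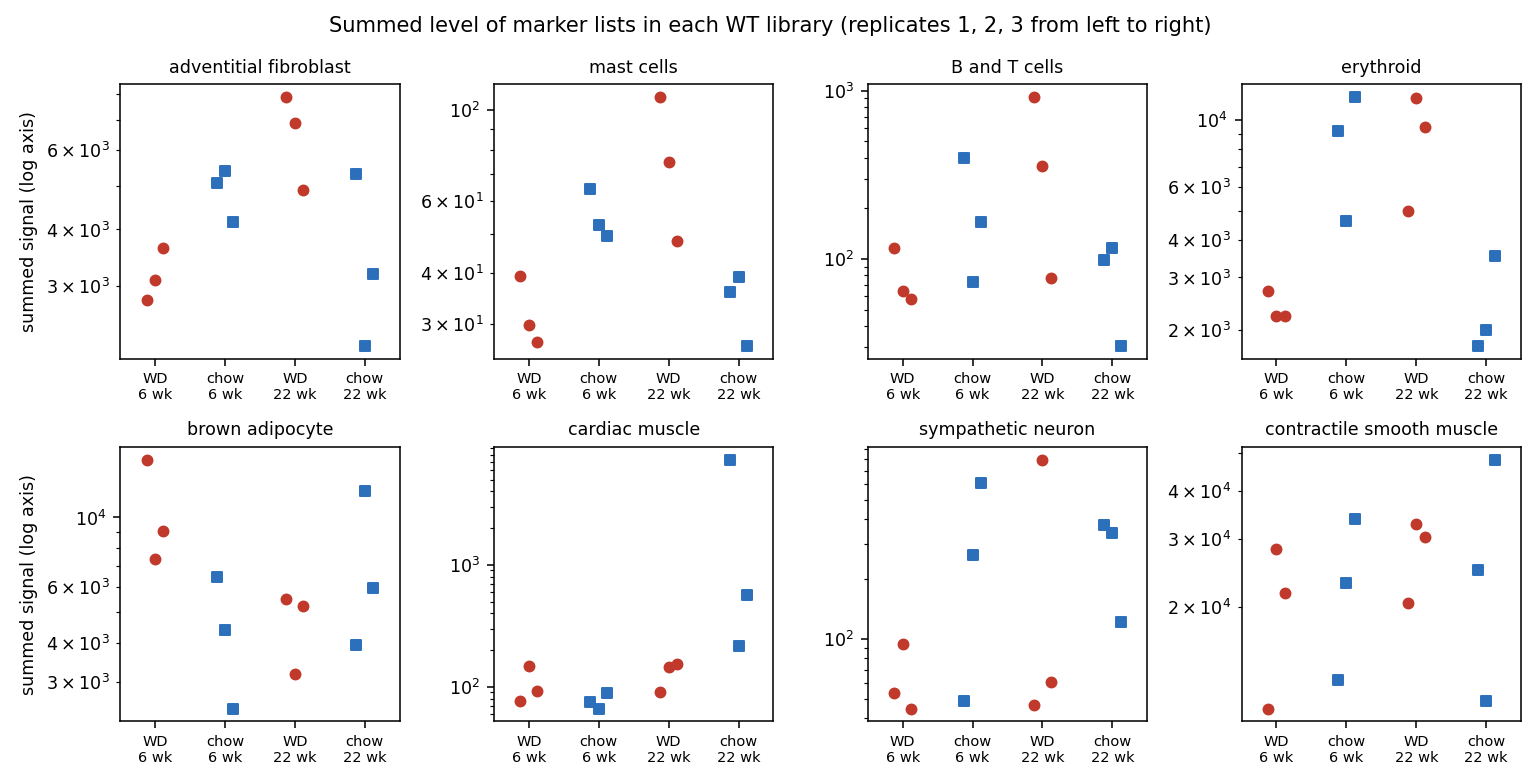
Summed normalised signal (log axis) of 8 marker lists in each WT library, with replicates 1, 2 and 3 from left to right, red circles for WD and blue squares for chow. Mast cell sums lie above chow on WD at 22 weeks and below chow on WD at 6 weeks, and cardiac muscle stands out in chow replicate 1 at 22 weeks, at 7298.

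The same diets had also been fed for 6 weeks to separate WT groups of 3 libraries each, which shared no library with the 22-week groups. At 6 weeks 203 genes (1.43%) passed, 118 higher on WD and 85 lower. With a brown fat term in the fit the balance of directions turned, with 71 higher and 304 lower and 59 of the 203 among them, and with all 4 tissue terms 48 were higher and 213 lower. The genes that rose at 22 weeks were mostly lower on WD at 6 weeks. Of the 131, 127 were below 0 at 6 weeks, with a median of -0.53 against -0.03 over all genes, and 20 passed as lower and 0 as higher, against 0.600% of all genes lower. Of the 62 that fell at 22 weeks, the median at 6 weeks was 0.35, and 11 passed as higher and 0 as lower, against 0.834% of all genes higher. Lep was 2.12, 13.3 and 8.41 on WD at 6 weeks against 15.4, 38.8 and 82.6 on chow at 6 weeks, so its order was the opposite of that at 22 weeks (-2.34 ± 0.63, limma adjusted p = 0.056). Cdkn1a was 127, 121 and 98.0 on WD at 6 weeks against 45.5, 29.0 and 29.1 on chow (1.73 ± 0.33, limma adjusted p = 0.015).

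The test of the difference between the 22-week and the 6-week diet effect passed for 1389 genes (9.81%), 4.92% with the 22-week effect more positive and 4.9% with it more negative. With a brown fat term 913 were more positive and 513 more negative, and 421 of the 1389 were among them, while with all 4 tissue terms 144 of the 1389 were among 486. Gng7, a G protein subunit, had the smallest p. It was 12.8, 11.8 and 13.9 on WD and 6.55, 7.96 and 8.09 on chow at 22 weeks, while at 6 weeks it was 5.31, 6.14 and 7.01 on WD and 14.2, 14.7 and 13.5 on chow. WD at 22 weeks and chow at 6 weeks thus had like levels, and so had the remaining pair of groups, and the difference of the effects was 1.79 ± 0.22 (limma adjusted p = 0.00014). Ptpn13, a tyrosine phosphatase, and Ccnl2, a cyclin tied to splicing, gave 1.63 ± 0.20 and -1.19 ± 0.16 (limma adjusted p = 0.00014 and 0.00029). For Lep the difference of effects was 5.51 ± 0.89 (limma adjusted p = 0.00072) and for Dio2 -4.41 ± 0.76 (limma adjusted p = 0.0013). All 24 genes named as the largest rises and falls passed this test, which holds the 22-week contrast that chose them and is therefore given as a description. Brown fat markers summed to 15270, 7393 and 9052 on WD and 6464, 4396 and 2473 on chow at 6 weeks, without overlap. Adventitial fibroblast genes summed to 2782, 3087 and 3640 on WD and 5079, 5407 and 4154 on chow at 6 weeks, also without overlap. At 22 weeks the sums overlapped, with brown fat at 5529, 3184 and 5240 on WD and 3936, 12100 and 5958 on chow. Adventitial fibroblast genes were then at 7880, 6908 and 4885 on WD and 5315, 2202 and 3186 on chow. Erythroid genes summed to 2695, 2232 and 2228 on WD and 9209, 4621 and 11950 on chow at 6 weeks. At 22 weeks their order was the opposite, at 4987, 11820 and 9474 on WD and 1773, 2014 and 3539 on chow. Of these 7 genes 6 passed the interaction test with the 22-week effect more positive, against 4.92% of all genes. The part of these cell types in the interaction was not tested. Without WD replicate 2 at 22 weeks the interaction count was 751, and in a fit of the 4 WT groups it was 360.

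**Figure D5:**
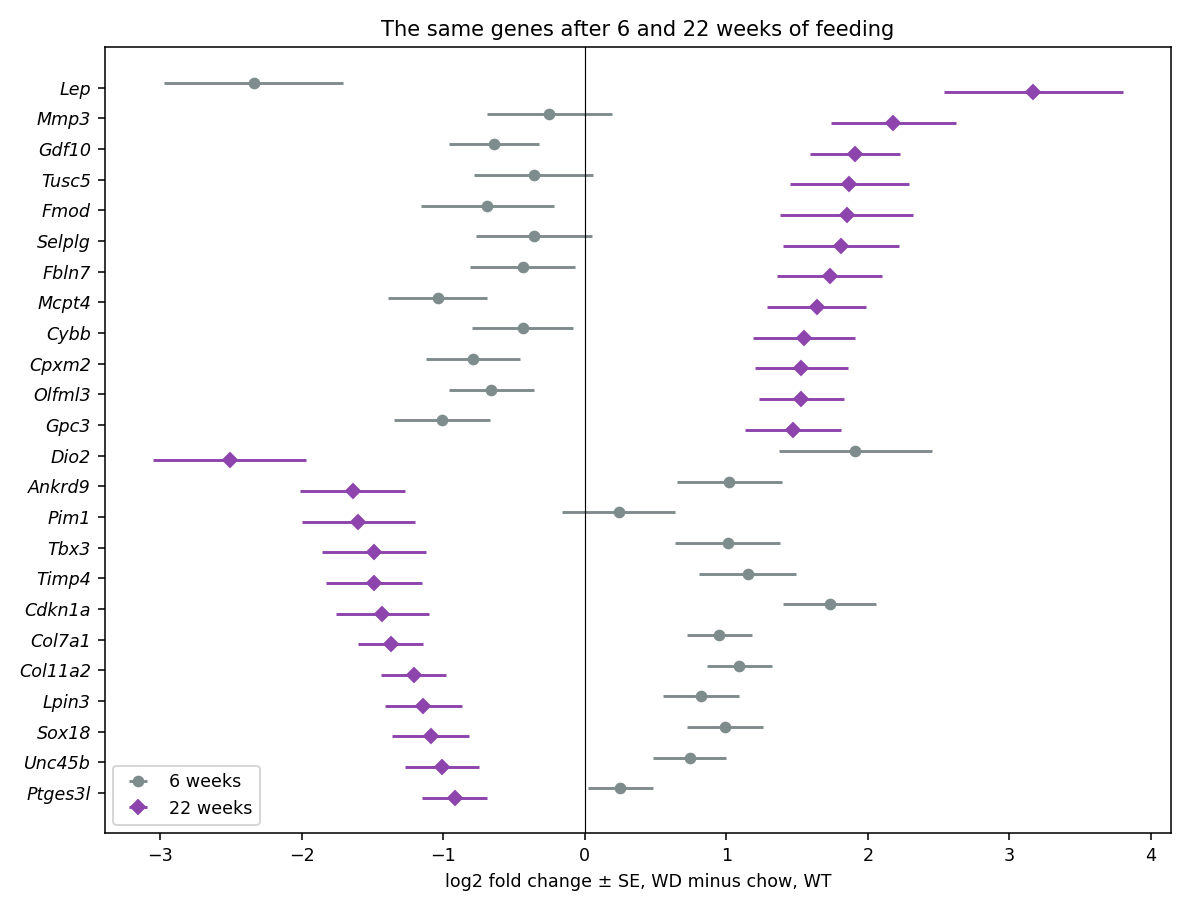
Log2 fold changes ± SE, WD minus chow, of the 24 named genes after 6 weeks (grey circles) and 22 weeks (purple diamonds). All 12 rises at 22 weeks lie below 0 at 6 weeks and all 12 falls lie above 0.

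In EKO mice at 22 weeks, the diet effect differed from that in WT for 879 genes (6.21%), 707 of them more positive in EKO (4.99%) and 172 more negative (1.21%). Of the 131 genes that rose in WT, 51 passed this test, and of the 62 that fell 14 passed, both chosen by a contrast that the test holds. Lep averaged 10.5 ± 4.35 on WD and 43.3 ± 32.6 on chow in EKO (SD, n = 3 each), against 69.8 ± 14.8 on WD and 7.62 ± 5.12 on chow in WT, and the effects differed by -4.95 ± 0.89 (limma adjusted p = 0.001). Mmp3 averaged 419 ± 39.1 on WD and 90.7 ± 8.44 on chow in EKO, against 115 ± 34.5 on WD and 24.5 ± 6.82 on chow in WT. Its diet effects differed by 0.02 ± 0.63 (limma adjusted p = 0.99), an interval wide enough to hold sizeable differences either way. Tpsb2 averaged 5.34 ± 1.34 on WD and 10.6 ± 0.945 on chow in EKO, against 13.8 ± 6.79 on WD and 2.52 ± 1.88 on chow in WT (difference of effects -2.96 ± 0.53, limma adjusted p = 0.00099).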

How the data were processed

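RNA of 35 mouse aortas was sequenced. The authors deposited 1 table of normalised signal per gene symbol and library, and the submitters' processing notes name Bowtie 0.12.2, Bowtie2 and RSEM with builds mm8 and mm9, without roles. How the deposited signal was scaled is not given in the sources used here. Between 71.6 and 82.1% of low values lay within 0.02 of a whole read, so read counts were not recovered and count tests were not used. Groups follow the titles. Differences were tested two-sided with limma 3.58.1 in R 4.3.3 (robust, intensity trend) on log2(value + 1), which understates changes of low genes, in 1 fit of the 12 groups with no covariate; 17 of 14174 genes that reached 1 in fewer than 3 libraries were removed. The script was tested on simulated data. The 4 comparisons were WD against chow in WT at 22 and at 6 weeks and the interactions of diet with duration and with genotype. Named genes were the 12 largest rises and falls among called genes with no overlap and a mean log2 level no lower than 3, up to 4 members of smallest p of each list described, Apoe, and up to 6 genes of smallest p per interaction. Other members of a list are named with values as part of its description, and genes outside the rule are said to be so. Members, rule and the 42 lists were chosen with earlier results of these data known, and list medians stand beside that of all genes with no set test. Symbols were matched to GRCm38 (13804 by name, 294 as synonyms, 74 not found) for transcript length, and promoters are RefSeq GRCm38.p6. How reads of near-identical genes, such as the mast cell proteases, were shared out is not given, so their values are uncertain. Alternatives were other fits, filters, pseudocounts of 0.1 and 5, rescaling, covariates and each library left out.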

Additional observations from a re-analysis of the deposited data

Results flagged for a closer look

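The diet effect differed between 22 and 6 weeks in all 24 genes named as the largest rises and falls, by limma's interaction test, with the 22-week contrast also having chosen them. The log2 difference of the effects was 5.51 for Lep, 2.67 for Mcpt4, 2.55 for Fmod, 2.54 for Gdf10, 2.49 for Gpc3, 2.43 for Mmp3, 2.32 for Cpxm2, 2.23 for Tusc5, 2.19 for Olfml3, 2.18 for Fbln7, 2.17 for Selplg and 1.99 for Cybb. It was -4.41 for Dio2, -3.16 for Cdkn1a, -2.66 for Ankrd9, -2.64 for Timp4, -2.50 for Tbx3, -2.31 for Col7a1, -2.29 for Col11a2, -2.07 for Sox18, -1.96 for Lpin3, -1.84 for Pim1, -1.74 for Unc45b and -1.17 for Ptges3l. Adjusted p from limma ran between 0.00032 and 0.041.

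The diet effect at 22 weeks differed between EKO and WT in 9 of the same genes, against 6.21% of all genes. This test also holds the WT contrast at 22 weeks that chose them, so the count is a description. The EKO minus WT difference of the effects was -4.95 for Lep, -2.38 for Gpc3, -2.34 for Mcpt4, -2.30 for Gdf10, -2.25 for Tusc5, -1.99 for Fbln7, -1.83 for Cpxm2, 1.61 for Cdkn1a and 1.32 for Lpin3, with limma adjusted p between 0.001 and 0.038.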

How the results depend on the processing

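The 193 calls of WD against chow at 22 weeks became 0 in a fit of the 6 libraries alone, 1 in a fit of the WT groups, 678 with a brown fat term, 6 with a cardiac term, 16 with all 4 tissue terms, 93 with the length term and 15 to 349 with 1 library left out (54.5% higher without chow replicate 2). The 203 calls at 6 weeks became 9, 13 and 375 in the first 3 of these settings and 10 to 170 with 1 library left out. The 1389 of diet by duration became 360 in both fits of fewer groups, 486 with the tissue terms, 868 with the length term and 751 to 1531 with 1 library left out. The 879 of diet by genotype became 365 in a fit of its groups alone, 1781 with the brown fat term, 306 with the cardiac term and 486 to 1032 with 1 library left out. The smaller fits hold fewer libraries, and the cause of these changes was not tested. Other pseudocounts, filters, rescaling (factors 0.9705 to 1.019), limma without robust and trend and a sex term left the 22-week count between 172 and 230. None of the 24 named genes changed sign in any alternative. Same-numbered libraries did not all deviate together (correlations of 0.07, -0.22 and 0.36 for numbers 1, 2 and 3), although number 1 lacked Y-linked transcripts in each WT group. A replicate block gave 218 calls and a sex term 221, with each of the 24 kept in both. With the brown fat term 21 of the 24 kept their call, and with the length term 12 did. The number kept was 3 with all 4 tissue terms and 1 with the cardiac term. In the fits of the 6 libraries alone and of the WT groups 0 of the 24 kept it. Depth of 7760000 to 17340000 reads leaves genes below a value of about 1 with few reads.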

Other observations

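A further set of genes was picked after their values were seen. The ABC transporters Abca8b, Abca8a, Abca9 and Abca6, which lie next to one another in GRCm38.p6, rose by 1.04 ± 0.20, 1.06 ± 0.21, 1.30 ± 0.24 and 0.92 ± 0.22 on the log2 scale on WD at 22 weeks (limma adjusted p = 0.012, 0.012, 0.0087 and 0.03). Abca8a, the highest of them, was 245, 253 and 195 on WD against 156, 92.1 and 91.1 on chow, without overlap. Their neighbour Abca5 differed by 0.25 (limma adjusted p = 0.52). These genes are similar in sequence, and how reads were shared among them is not given in the sources used here. At 6 weeks Abca8a, Abca8b and Abca6 were lower on WD (-0.83, -0.88 and -0.87, limma adjusted p = 0.037, 0.029 and 0.038).

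Other called genes were also picked by eye, with no list or test of a group behind them. Prkdc, the kinase of end joining, was 24.4, 21.8 and 25.1 on WD against 16.8, 17.3 and 17.4 on chow (0.44 ± 0.09, limma adjusted p = 0.012). Rad50 and Brca2 rose by 0.68 ± 0.13 and 0.77 ± 0.15 (limma adjusted p = 0.01 and 0.012). The length term moved with the groups as well, and its part in these genes was not tested. Of 22 proliferation genes 21 were above 0 (median 0.69), and 0 passed in limma, with 8 at an unadjusted p under 0.05 and 6 calls without WD replicate 3. They summed to 638, 330 and 195 on WD and to 245, 209.0 and 213 on chow, so that WD replicates 1 and 2 were high and WD replicate 3 was lowest of all, and their part in the values of Prkdc, Rad50 and Brca2 was not tested. Ccnl2, a cyclin tied to splicing, was 153, 148 and 175 on WD against 256, 276 and 258 on chow (-0.73 ± 0.11, limma adjusted p = 0.0061), and Srsf11, Snrpc and Tial1 fell by 0.53 ± 0.09, 0.49 ± 0.10 and 0.43 ± 0.09 (limma adjusted p = 0.0087, 0.018 and 0.021). Lipg, the endothelial lipase, was 0.917, 1.04 and 0.760 on WD against 5.38, 14.3 and 5.97 on chow (-2.21 ± 0.37, limma adjusted p = 0.0067), and its low WD values leave the size of the fall uncertain.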
